A study of Rattus norvegicus with 31 samples.

Results

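Sertoli cells line the seminiferous tubules, carry the germ cells and seal the tubule with junctions that together form the blood-testis barrier. A list of 34 rat genes that define these cells or build that barrier is described here across 31 testis arrays. It was drawn up from their known roles, but with earlier results of these data known. Of the 34 genes, 30 had a probe set named by the array's annotation and 27 were bright enough to be tested, out of 14217 named and 11379 tested genes in all. Each gene is given by its probe set of highest mean over the 31 arrays.

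Transcription factors of the SOX, GATA, WT1 and DMRT families set and keep Sertoli cell fate, and the cells secrete hormones, carrier proteins and proteases into the tubule. Tight junctions of occludin and claudins, gap junctions of connexins, cadherin-based junctions and the actin bundles of the ectoplasmic specialization hold neighbouring Sertoli cells together and bind germ cells. Follicle-stimulating hormone and testosterone both act on Sertoli cells, which carry the receptors of both, and barrier proteins are known to respond to androgen.

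The animals were LBNF1 rats aged 25 to 27 weeks. Radiation of 6 Gy had been given to the lower abdomen in all 3 groups, so the sham group was irradiated too and no group stands for an untreated testis. The sham group has 14 arrays. The ablation group has 11 arrays from rats given a GnRH antagonist together with flutamide, which blocks the androgen receptor. The ablation plus estradiol group has 6 arrays from rats given a GnRH antagonist, an androgen receptor antagonist and estradiol; their labels also name FSH supplementation, while the series title and design give estradiol, and the group is named by the compound here. The labels call the arrays biological replicates. The 6 estradiol arrays are a later deposit than the other 25, with fewer decimals, so an effect of the later deposit cannot be told apart from that of the group. Of the sham arrays, 10 are described as control testes and 4 as irradiated testes, although all 14 are titled irradiated.

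Values are log2 signals as deposited, with array medians between -1.44 and -1.24. To be tested, a probe set had to lie above the filter level, which is the 40th percentile of each array (-1.93 to -1.75), in 6 or more arrays. A gene is called higher or lower where limma gave an adjusted p under 0.05 over all tested probe sets. Arrays of 2 kinds were marked off, each by a cut. In 5 arrays (sham 6 and 7, ablation 4, 5 and 9) the mean log2 signal of the protamine and transition protein genes Prm1, Prm2, Tnp1 and Tnp2, all of spermatids, exceeded the array's median, and these are called the arrays with spermatid RNA. In 4 arrays (sham 1 and 5, estradiol 1 and 5) the 99.9th percentile of signal was 4.25 to 4.88, against 5.00 to 5.68 in the other 27. These 4 are called the arrays of low top signal. Neither cut fell in a wide gap. Sham array 8, at -1.53 against a median of -1.39, just missed the first. The second was set at 4.9 after the data were seen. Results were taken with and without each set. These are whole-testis samples, in which fewer cells of a type and less RNA per cell cannot be told apart.

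Promoter windows are shown for 5 members that carry the changes described here: Gja1, which fell with ablation, Espn, Ocln and Dhh, which rose, and Dmrt1, which rose with added estradiol. Each is the 250 bases before the start of the RefSeq gene on rat build GRCr8, written 5′ to 3′ in the direction of the gene. Capitals mark matches, on either strand, to any of 6 motifs. The GATA motif is the core GATAA of GATA factor sites. The SOX motif is the core ACAAT of SOX factor sites. The androgen motif is the androgen receptor half-site AGAACA. The estrogen motif is the estrogen receptor half-site GGTCA. The TATA motif is the box TATAAA. The Sp1 motif is the core GGGCGG of Sp1 sites. The windows lie at chr20:36302314-36302563 (+) for Gja1, chr1:232568929-232569178 (+) for Dmrt1, chr7:131935353-131935602 (-) for Dhh, chr2:33441199-33441448 (-) for Ocln and chr5:167942985-167943234 (-) for Espn.
Gja1: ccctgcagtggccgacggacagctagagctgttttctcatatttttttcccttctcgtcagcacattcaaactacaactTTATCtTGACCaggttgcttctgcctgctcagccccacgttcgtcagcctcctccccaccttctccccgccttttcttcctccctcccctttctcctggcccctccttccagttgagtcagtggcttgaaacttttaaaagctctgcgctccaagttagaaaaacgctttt
Dmrt1: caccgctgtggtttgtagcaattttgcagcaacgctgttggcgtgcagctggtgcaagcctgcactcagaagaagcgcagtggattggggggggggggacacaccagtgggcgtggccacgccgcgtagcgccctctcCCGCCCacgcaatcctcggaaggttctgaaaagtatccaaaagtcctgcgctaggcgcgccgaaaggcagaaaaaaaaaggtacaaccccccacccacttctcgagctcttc
Dhh: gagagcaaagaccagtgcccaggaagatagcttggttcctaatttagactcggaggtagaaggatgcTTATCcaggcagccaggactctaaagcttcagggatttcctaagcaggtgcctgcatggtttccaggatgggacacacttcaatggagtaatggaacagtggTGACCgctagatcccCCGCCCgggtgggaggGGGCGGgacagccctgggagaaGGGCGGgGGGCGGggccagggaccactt
Ocln: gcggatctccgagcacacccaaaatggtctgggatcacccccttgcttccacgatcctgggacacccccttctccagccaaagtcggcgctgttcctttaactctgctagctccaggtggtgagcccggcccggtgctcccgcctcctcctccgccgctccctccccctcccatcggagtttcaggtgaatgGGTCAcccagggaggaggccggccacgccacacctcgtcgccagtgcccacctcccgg
Espn: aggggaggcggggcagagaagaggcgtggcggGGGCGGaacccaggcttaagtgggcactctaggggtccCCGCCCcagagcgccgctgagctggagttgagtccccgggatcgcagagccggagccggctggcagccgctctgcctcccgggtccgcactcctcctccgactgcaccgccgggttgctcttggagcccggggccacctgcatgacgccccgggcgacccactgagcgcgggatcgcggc
The Gja1 window held 1 GATA motif and 1 estrogen motif, a single base apart, and no Sp1 motif. The Dhh window held 4 Sp1 motifs, 1 estrogen motif and 1 GATA motif. The Ocln window held 1 estrogen motif, the Espn window 2 Sp1 motifs and the Dmrt1 window 1 Sp1 motif. A window was found for 23 of the 34 members. The Sp1 motif occurred in 13 of these 23, against 30.5% of all 33469 windows of the same length. The GATA motif occurred in 4 (23.5% of all windows), the SOX motif in 3 (30.0%), the androgen motif in 2 (17.5%), the estrogen motif in 8 (35.4%) and the TATA motif in 2 (12.9%). None of the motifs contains another. A match is a string of letters, not a measured binding site.

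Ablation against sham tests what suppressing gonadotropins and blocking androgen did to these genes in the irradiated testis. The gap junction gene Gja1 fell, and several barrier and Sertoli genes rose modestly. Gja1 was 2.13-fold lower, while Espn, Itga6, Ocln, Dhh, Gata4 and Tjp1 were 1.22- to 1.56-fold higher. Of the 27 tested members, 6 were called higher and 1 lower. Over all 11379 genes, 9.24% were called higher and 12.8% lower. Changes were positive for 23 members and negative for 4, with a median of 0.24 (log2), against 5701 positive and 5678 negative and a median of 0.00 over all genes. By role, 1 of 4 regulators, 1 of 5 secreted products and 4 of 14 junction genes were called higher, with median changes of 0.26, 0.22 and 0.26. Neither of the 2 other Sertoli genes and neither of the 2 intermediate filament genes was called.

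**Figure D1:**
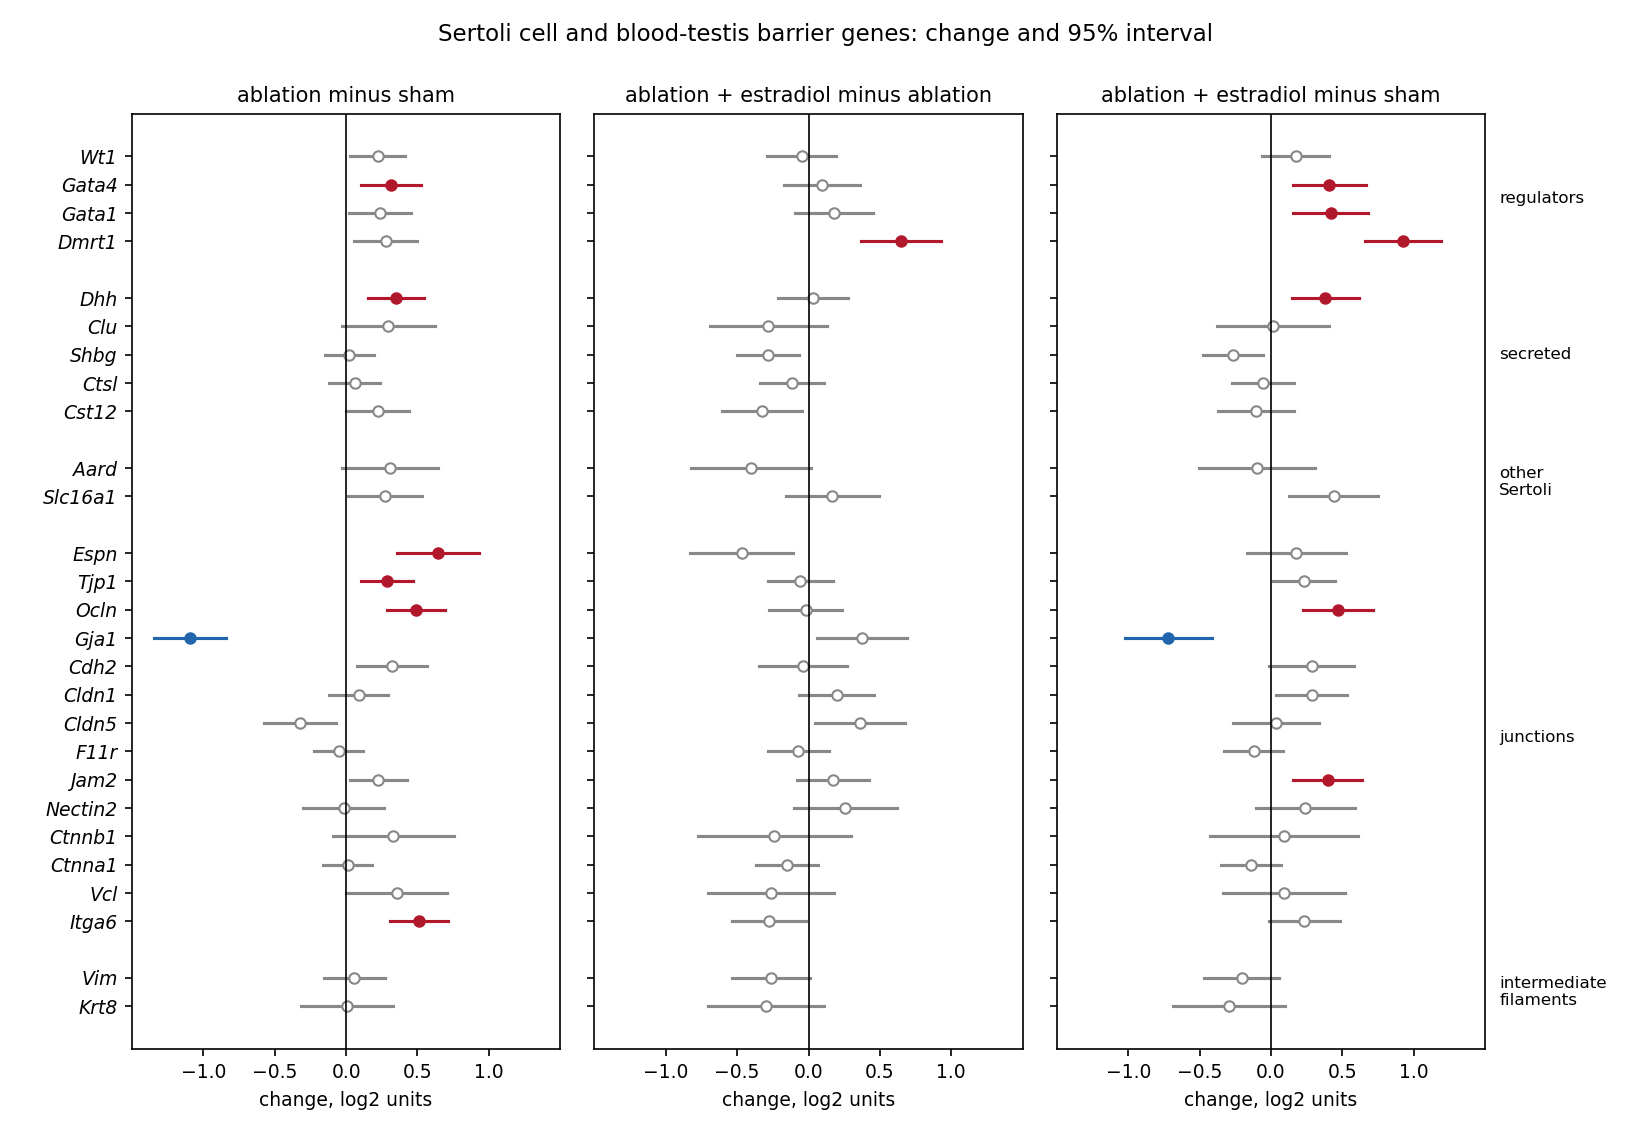
Change in log2 units of the 27 tested members, by role, in the 3 comparisons. Points are limma estimates and bars 95% intervals; filled points are called (red higher, blue lower) and open grey points are not. Gja1 lies at -1.09 with ablation, Dmrt1 at 0.65 with added estradiol, and most other points lie within 0.5 of 0.

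Among the regulators, SOX9 is the transcription factor that starts Sertoli cell differentiation and SOX8 acts beside it. No probe set was named for Sox9 or Sox8 here, and they were not analysed. Gata4, a zinc finger factor of Sertoli and Leydig cells, had a signal of 1.81 to 2.78 in sham (median 2.22), 2.30 to 2.80 with ablation (median 2.55) and 2.12 to 3.00 with ablation plus estradiol (median 2.67). The groups overlapped, and the lowest ablation array lay above the sham median. The change with ablation was 0.31 ± 0.10 (log2, SE; limma adjusted p = 0.0279), a 1.24-fold rise. Without ablation array 11 it was 0.29 with an adjusted p of 0.0545, and without the 5 arrays with spermatid RNA it was 0.27 with 0.124. A second Gata4 probe set changed by 0.01 (adjusted p = 0.977).

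Wt1, a zinc finger factor needed to keep Sertoli cell identity, had a signal of 1.91 to 2.80 in sham (median 2.43), 2.15 to 2.98 with ablation (median 2.71) and 2.34 to 2.86 with ablation plus estradiol (median 2.58). The 3 groups overlapped widely. Its change with ablation was 0.22 ± 0.10 (adjusted p = 0.0987, limma), with a 95% interval of 0.03 to 0.42. Without ablation array 4 it was 0.27 with a limma adjusted p of 0.0329, and after quantile normalization 0.27 with 0.00131. Wt1 was not called when all arrays with spermatid RNA, ablation array 4 among them, were left out. A second, dimmer Wt1 probe set changed by -0.13 (0.768). Gata1, which in the testis is found in Sertoli cells at some stages of the cycle, changed by 0.24 with ablation (limma adjusted p = 0.118). Without the arrays with spermatid RNA the Gata1 change was 0.34 and was called (0.0412). It was near the filter level, at -1.80 to -0.96 in sham and -1.49 to -0.78 with ablation.

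Dmrt1, a DM-domain factor that keeps Sertoli cells male and is also expressed in spermatogonia, had the largest change of the tested regulators in both comparisons with the estradiol group, though not with ablation alone. Its signal was -1.32 to -0.49 in sham (median -0.89), -0.96 to -0.31 with ablation (median -0.57) and -0.50 to 0.50 with ablation plus estradiol (median 0.00). Of the 6 estradiol arrays, 5 lay at -0.10 or above, over every ablation array, and array 3, at -0.50, lay within the ablation range. Dmrt1 changed by 0.28 ± 0.11 with ablation (adjusted p = 0.0681, limma). That change was called, at 0.31, without sham array 1 (adjusted p = 0.0444), sham array 5 (0.0459) or ablation array 9 (0.0427).

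Of the secreted products, Dhh encodes desert hedgehog, the Sertoli cell signal to Leydig and peritubular cells. Its signal was 0.96 to 1.83 in sham (median 1.38), 1.51 to 2.17 with ablation (median 1.66) and 1.44 to 2.00 with ablation plus estradiol (median 1.84). No ablation array fell into the lower part of the sham range. Dhh rose by 0.35 ± 0.10 with ablation (adjusted p = 0.00789, limma), which is 1.27-fold.

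Clu encodes clusterin (sulfated glycoprotein 2), a major secreted protein of rat Sertoli cells. Its signal was 4.56 to 6.47 in sham (median 5.85), 5.73 to 6.26 with ablation (median 6.06) and 5.03 to 6.22 with ablation plus estradiol (median 5.92). The change of 0.30 with ablation did not pass (adjusted p = 0.209). The low sham and estradiol values came from the 4 arrays of low top signal, where Clu was 4.92, 4.56, 5.32 and 5.03.

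Shbg encodes the androgen-binding protein that Sertoli cells release into the tubule. Its signal was 2.07 to 2.83 in sham (median 2.29), 2.08 to 2.80 with ablation (median 2.37) and 1.98 to 2.29 with ablation plus estradiol (median 2.04). Sham and ablation were nearly level: the change was 0.02 ± 0.08 (adjusted p = 0.901, limma; 95% interval -0.15 to 0.19). Ctsl, the lysosomal protease cathepsin L that Sertoli cells also secrete, changed by 0.06. Cst12, a cystatin of the cysteine protease inhibitor family, changed by 0.22. Neither passed with the values as deposited, but Cst12 did after quantile normalization (0.22, limma adjusted p = 0.00274).

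Amh encodes anti-Müllerian hormone, a product of immature Sertoli cells. It lay above the filter level in 1 of 31 arrays and was not tested. Its signal was -4.53 to -1.92 in sham (median -2.75), -5.01 to -1.94 with ablation (median -2.49) and -4.15 to -2.34 with ablation plus estradiol (median -3.08). Krt18, a keratin of immature Sertoli cells, was likewise above the filter level in 1 array. Cst9 and Gstm6 had no named probe set and were not analysed.

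Of the remaining Sertoli genes, Slc16a1, the lactate transporter MCT1, changed by 0.27 with ablation (adjusted p = 0.139, limma), and Aard, an alanine- and arginine-rich protein, by 0.31 (0.204). Fabp9, a lipid-binding protein better known from spermatids, exceeded the filter level in 3 arrays. They were sham 6 at 1.98, sham 7 at 0.04 and ablation 4 at -0.45, all among the 5 arrays with spermatid RNA. The other Fabp9 values were below the filter, so this member gave no Sertoli cell reading here. Vim, the vimentin filament of Sertoli and interstitial cells, changed by 0.06, with every ablation array between 4.75 and 5.27. Krt8 changed by 0.01 and exceeded the filter level in 6 sham, 4 ablation and 0 estradiol arrays.

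Gap junctions gave the largest change. Gja1 encodes the main connexin of gap junctions between Sertoli cells, which Leydig cells make as well. Its signal was 3.47 to 4.80 in sham (median 3.88), 2.60 to 3.28 with ablation (median 2.82) and 2.57 to 3.70 with ablation plus estradiol (median 3.30). All 11 ablation arrays lay below all 14 sham arrays. Gja1 was the only member whose groups did not overlap in this comparison, where 2.43% of all genes were so separated. It fell by 1.09 with ablation (SE 0.12, limma adjusted p = 1.39e-08). A second Gja1 probe set, dimmer and above the filter level in 21 arrays, changed by -1.31 (limma adjusted p = 0.000252). With ablation this probe set was at -4.04 to -1.66 (median -1.94), mostly below the filter level, so the size of its fall is uncertain. The last Gja1 probe set, above the filter level in 8 arrays, changed by 0.03 (0.935).

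Of the tight junction genes, Ocln and Tjp1 were called higher and Cldn1, Cldn5, F11r and Jam2 were not called. Ocln encodes occludin, a membrane protein of the tight junction strand. Its signal was 0.47 to 1.55 in sham (median 1.23), 1.44 to 2.01 with ablation (median 1.65) and 1.16 to 1.84 with ablation plus estradiol (median 1.77). Most ablation arrays lay above the whole sham range, which reached 1.55, and the lowest touched its upper end. Ocln rose by 0.49 ± 0.10 (adjusted p = 0.000414, limma), which is 1.40-fold. A second, dimmer Ocln probe set changed by 0.08 (0.791).

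Tjp1 encodes ZO-1, the scaffold that ties occludin and claudins to actin. Its signal was 2.31 to 3.03 in sham (median 2.71), 2.63 to 3.29 with ablation (median 2.97) and 2.45 to 3.09 with ablation plus estradiol (median 3.04). The groups overlapped, and Tjp1 rose by 0.29 ± 0.09 with ablation (adjusted p = 0.0198, limma). Cldn1, a claudin, had a signal of -1.26 to -0.13 in sham (median -0.45), -0.60 to -0.10 with ablation (median -0.43) and -0.47 to 0.05 with ablation plus estradiol (median -0.21). Its change with ablation was 0.09 (limma adjusted p = 0.609). The other Cldn1 probe sets, both dimmer, changed by 0.41 (0.076) and 0.06 (0.909).

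Cldn5, a claudin of Sertoli cells and of endothelium, changed by -0.32 with ablation (adjusted p = 0.0603, limma). It was called in 6 of the 25 fits that left out 1 array: sham 2 (-0.36, adjusted p = 0.0355), sham 6 (-0.35, 0.0478), sham 7 (-0.37, 0.0243), sham 10 (-0.35, 0.0481), ablation 5 (-0.39, 0.0152) or ablation 7 (-0.35, 0.0497). Without the 5 arrays with spermatid RNA it was -0.47 with 0.00765. Of 6 endothelial markers measured, 2 were called lower and 0 higher in the same comparison, where 12.8% of all genes were called lower. Their part in the Cldn5 value was not tested. The junctional adhesion molecules F11r (-0.05) and Jam2 (0.23) did not pass. Jam2 was called without ablation array 6 (0.27, adjusted p = 0.043), and another of its 5 probe sets was called at 0.33 (0.0412).

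The ectoplasmic specialization, the actin-rich adhesion of Sertoli cells to each other and to spermatids, held the largest rise. Espn encodes espin, the protein that bundles its actin filaments. Its signal was 2.31 to 3.37 in sham (median 2.73), 2.77 to 4.14 with ablation (median 3.45) and 2.57 to 3.41 with ablation plus estradiol (median 3.03). The sham and ablation ranges shared values from 2.77 to 3.37. Espn rose by 0.65 ± 0.14 (adjusted p = 0.000918, limma), which is 1.56-fold.

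Itga6, an integrin subunit of Sertoli cell adhesion that is also used as a marker of undifferentiated spermatogonia, had a signal of 2.50 to 3.22 in sham (median 2.88). It was 3.07 to 3.63 with ablation (median 3.33) and 2.60 to 3.58 with ablation plus estradiol (median 3.04). Only the top of the sham range reached into the ablation range. Itga6 rose by 0.51 ± 0.10 (adjusted p = 0.000285, limma), but its 3 other tested probe sets changed by 0.15, -0.12 and -0.20, and none of these passed. In the mean of all 4 the change was 0.09 (0.539).

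Of the cadherin and nectin adhesions, Cdh2, N-cadherin, changed by 0.32 with ablation (adjusted p = 0.0567, limma). It was called, at 0.34 to 0.38, without sham array 5 (0.0439), 7 (0.0488) or 10 (0.0498), or ablation array 2 (0.0467), 4 (0.0379) or 6 (0.0245). Its intracellular partners Ctnnb1, beta-catenin, and Ctnna1, alpha-catenin, changed by 0.33 (0.292) and 0.01 (0.952). Vcl, vinculin, which links such junctions to actin, changed by 0.35 (0.158).

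Nectin2, a nectin of Sertoli cells, changed by -0.02 with ablation on the probe set used (adjusted p = 0.952, limma). A dimmer Nectin2 probe set, above the filter level in 22 arrays and singled out after its values were seen, changed by 0.79 with ablation (0.00364), by -1.82 with added estradiol (5.79e-06) and by -1.04 between ablation plus estradiol and sham (0.00182). In the estradiol arrays this dimmer probe set was at -3.57 to -1.82, with a median of -2.30 that lay below the filter level. The size of its 2 falls is therefore uncertain. The 2 probe sets do not give 1 account of Nectin2.

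**Figure D2:**
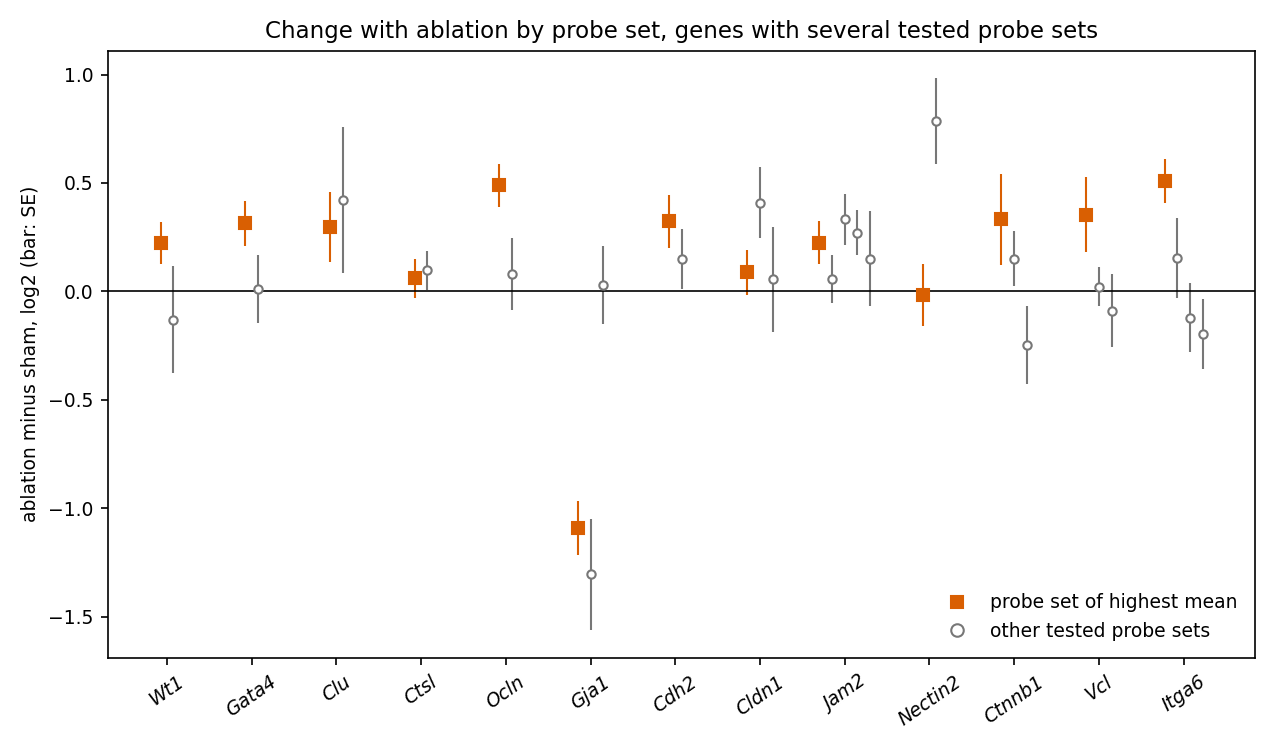
Change with ablation (log2, bar SE) for each tested probe set of the members that have several. Orange squares are the probe sets used, of highest mean; open circles are the others. The leading 2 probe sets of Gja1 lie at -1.09 and -1.31, while those of Itga6, Ocln and Gata4 other than the one used lie near 0. The Gja1 probe set at -1.31 was mostly below the filter level with ablation.

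Which sham arrays serve as controls mattered for several of these calls. Against the 4 sham arrays described as irradiated alone, Gja1, Espn and Itga6 were still called, while Ocln (0.34, limma adjusted p = 0.0738), Gata4 (0.24, 0.232), Dhh (0.25, 0.269) and Tjp1 (0.12, 0.636) were not. This fit has fewer sham arrays. It also lacks sham arrays 1 and 5, of low top signal, and 6 and 7, with spermatid RNA, which are all described as control. Their part in the lost calls and in the differences below was not tested. Between the 2 kinds of sham array 0% of genes were called by limma, 0 of 11379, with 327 at an unadjusted p under 0.05, none of them a member. The difference, irradiated-described minus control-described, was positive for 21 members and negative for 6. Each had a limma adjusted p of 0.997 or more, and the split over all genes is not given here. Tjp1 averaged 2.85 in the 4 and 2.61 in the 10, and Ocln 1.35 and 1.14.

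**Figure D3:**
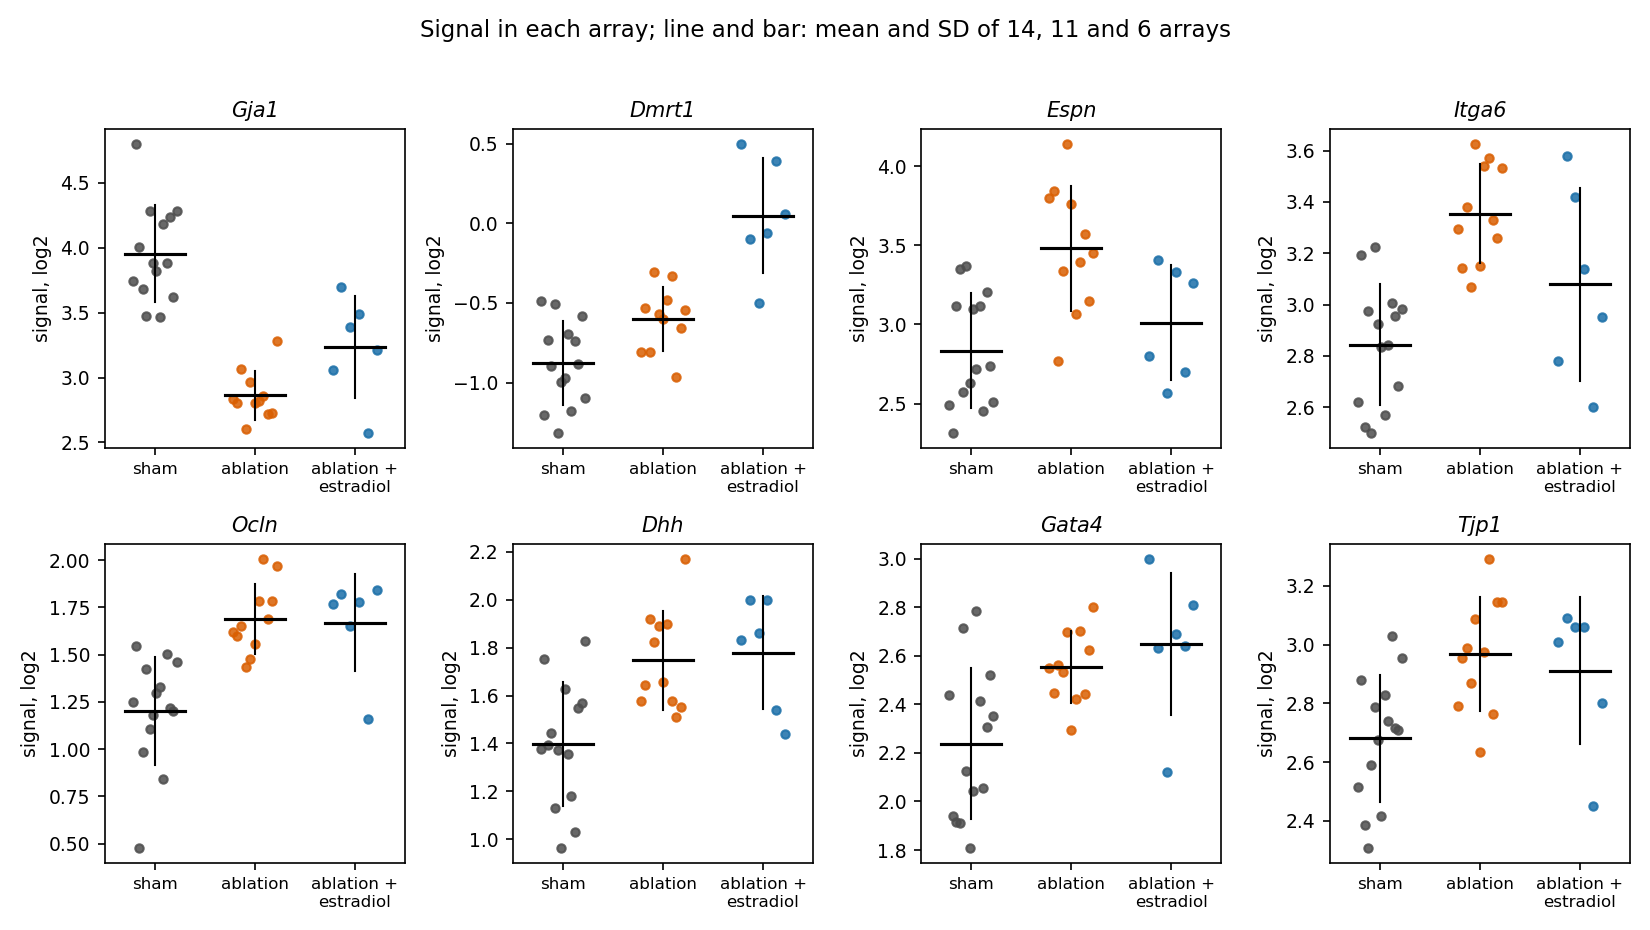
Signal (log2) of 8 members in each array of the 3 groups; horizontal lines are means and vertical bars SDs of 14, 11 and 6 arrays. Gja1 with ablation (2.60 to 3.28) lies wholly below sham (3.47 to 4.80), while in the other panels the groups share part of their range.

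Ablation plus estradiol against ablation tests what estradiol changed under hormone ablation. Dmrt1 was 1.57-fold higher with added estradiol, and it was the only member called. Of 27 members 1 was called higher and 0 lower by limma, with 3 and 4 at an unadjusted p under 0.05. Over all genes 0.729% were called higher and 2.73% lower. Changes were positive for 10 members and negative for 17, with a median of -0.06 against -0.02 over all genes. The groups of every member overlapped, as they did for all but 0.738% of genes.

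Dmrt1 rose by 0.65 ± 0.14 (limma adjusted p = 0.0019), and this call was kept in each of the 17 fits that left out 1 array. Without the 4 arrays of low top signal, 2 of them in the estradiol group, the change was 0.45 and did not pass (0.0701). Those 2 arrays held the 2 highest Dmrt1 values, 0.50 and 0.39, and the 2 sham arrays of low top signal held the highest sham values, -0.49 and -0.51. Of 5 spermatogonial markers, 1 was called higher in this comparison and 0 lower. Their summed signal was 1.21 to 2.39 in sham (median 1.79), 1.46 to 2.20 with ablation (median 1.87) and 1.92 to 2.78 with ablation plus estradiol (median 2.21). The part of spermatogonia in the Dmrt1 change was not tested.

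Gja1 was 3.06, 3.70, 3.39, 3.49, 2.57 and 3.21 in the 6 estradiol arrays. Their mean, 3.24, lay between the means of ablation (2.86) and sham (3.95), while single arrays reached from below the lowest ablation array into the sham range. The change against ablation was 0.37 ± 0.16 (adjusted p = 0.191, limma), with a 95% interval of 0.06 to 0.69. The 2 lowest of these 6 values came from the arrays of low top signal, and without the 4 such arrays the change was 0.59 and passed (0.0297). After quantile normalization it was 0.42 and also passed (0.0368).

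The genes that had risen most with ablation had lower estradiol values without passing. Espn changed by -0.47 against ablation (adjusted p = 0.136, limma; 95% interval -0.83 to -0.11) and Itga6 by -0.28 (0.258; -0.53 to -0.02). Both comparisons share the ablation arrays, so a high value there enters each with opposite sign. Ocln (-0.02), Dhh (0.03), Tjp1 (-0.06) and Gata4 (0.10) had changes near 0. Shbg changed by -0.29 (0.128; -0.50 to -0.07), Cst12 by -0.33 (0.197), Aard by -0.40 (0.331) and Cldn5 by 0.36 (0.211).

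Ablation plus estradiol against sham tests the joint treatment against the irradiated control. Gja1 was again lower than in sham, and Dmrt1, Ocln, Gata1, Gata4, Jam2 and Dhh were higher. Of 27 members 6 were called higher and 1 lower, where 5.28% of all genes were called higher and 11.9% lower. The median change was 0.17 over the members and -0.03 over all genes, and 18 members were positive and 9 negative. No member had groups that did not overlap, where 3.71% of all genes did. By role, 3 of 4 regulators, 1 of 5 secreted products and 2 of 14 junction genes were called higher and 1 junction gene lower.

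Dmrt1 rose by 0.93 ± 0.13 (limma adjusted p = 1.76e-06), which is 1.90-fold, and passed in all 13 other settings and in the 20 fits that left out 1 array. Ocln rose by 0.47 (0.00569) and Gja1 fell by 0.72 (0.000648), which is 1.65-fold. Jam2 rose by 0.40 (0.0184), Dhh by 0.38 (0.0211), Gata4 by 0.41 (0.0214) and Gata1 by 0.42 (0.0235). These last 4 each hung on single estradiol arrays: Jam2 without array 2 had an adjusted p of 0.0808, Dhh without array 2 of 0.0694 and without array 4 of 0.0695, Gata4 without array 1 of 0.0829 and without array 6 of 0.063, and Gata1 without array 6 of 0.0952. Against the 4 sham arrays described as irradiated alone, Dmrt1 and Gja1 were still called, while Ocln (0.32, 0.166), Gata4 (0.34, 0.143), Dhh (0.29, 0.308), Jam2 (0.29, 0.325) and Gata1 (0.20, 0.537) were not.

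Gata1 lay at -1.08 to -0.58 in the estradiol arrays (median -0.97) against a sham median of -1.29, and Jam2 at 2.05 to 2.92 (median 2.58) against 2.16. Slc16a1 was 2.60 to 3.09 with ablation plus estradiol (median 2.67) against 1.54 to 2.75 in sham (median 2.31), a change of 0.44 that just missed (adjusted p = 0.0504, limma). It was called, at 0.46 to 0.47, without sham array 1 (0.0367), 5 (0.0329), 9 (0.0428), 11 (0.0468), 13 (0.0339) or 14 (0.0438). It was also called in 7 of 13 other settings, among them quantile normalization (0.54, 0.00121) and the replicate block (0.59, 0.0214). Tjp1 changed by 0.23 (0.166), and by 0.32 (0.0406) without estradiol array 5. Espn, which had risen with ablation, changed by 0.18 (0.577). Shbg changed by -0.26 (limma adjusted p = 0.0818), and by -0.30 (0.0334) without the arrays with spermatid RNA.

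Further genes of the same biology came from lists of known roles. Of 42 other junction genes, 38 were named and 31 tested. With ablation 2 were called higher and 1 lower, with a median change of 0.02, where 9.24% of all genes were called higher and 12.8% lower. Cldn12, a claudin, rose by 0.47 (limma adjusted p = 0.00546), Gjc1, another connexin, by 0.25 (0.0408), and Gja4, a connexin of blood vessels, fell by 0.28 (0.036). With added estradiol 0 of the 31 were called, with 3 higher and 4 lower at an unadjusted p under 0.05. Of all genes 0.729% were called higher and 2.73% lower there. Against sham, the estradiol group had Cldn12 (0.46) and Gjc1 (0.35) higher, where 5.28% of all genes were called higher.

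Of 27 other genes associated with Sertoli cells, 22 were named and 18 tested. With ablation 4 were called higher and 6 lower, where 9.24% of all genes were called higher and 12.8% lower. The median was -0.22, with a wider spread than the members, from -1.62 to 1.49. Tubb3, a beta-tubulin reported as androgen-responsive in Sertoli cells, fell by 1.62 (limma adjusted p = 1.8e-14) and Eppin, a protease inhibitor, by 1.52 (7.41e-10). Eppin exceeded the filter level in 14 sham arrays but in only 1 ablation and 1 estradiol array. Inhbb, the inhibin and activin beta B subunit, rose by 1.49 (1.35e-12), from -0.71 to 0.20 in sham to 0.83 to 1.64 with ablation. Lhx9, a LIM homeobox factor of gonadal somatic cells, fell by 0.94 (8.88e-08) and was the single one of the 18 called with added estradiol, at 0.51 (0.0308). Against sham the estradiol group had 3 higher and 6 lower, where 5.28% of all genes were called higher and 11.9% lower. The 9 were led by Tubb3 (-1.98), Inhbb (1.62), Eppin (-1.40) and Ptgds, a prostaglandin D synthase (-1.84). Ptgds exceeded the filter level in 14 sham, 1 ablation and 0 estradiol arrays. Eppin and Ptgds thus passed the filter through their sham values, and the size of their falls is limited by signal over background.

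Markers of other testis cells moved in the same arrays. With ablation, 6 of 8 Leydig cell markers were called lower and 2 higher, 7 of 8 macrophage markers lower, and 4 of 6 peritubular myoid markers lower. The shares of all genes so called were 12.8% lower and 9.24% higher. The summed Leydig signal was 5.92 to 6.96 in sham (median 6.67), 5.62 to 6.02 with ablation (median 5.75) and 5.14 to 6.16 with ablation plus estradiol (median 5.90). The fall of Gja1, which Leydig cells also express, went the same way as this list, and the part of Leydig cells in it was not tested. Of 5 spermatogonial markers, 3 were called higher and 1 lower with ablation. The summed signal of the 30 members was 7.69 to 8.62 in sham (median 8.47), 8.42 to 8.70 with ablation (median 8.54) and 7.78 to 8.71 with ablation plus estradiol (median 8.46). Signals were summed unlogged, so this level follows bright members that were not called, such as Clu, Aard and Ctnnb1. Dimmer members such as Dmrt1 and Ocln hardly enter it.

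**Figure D4:**
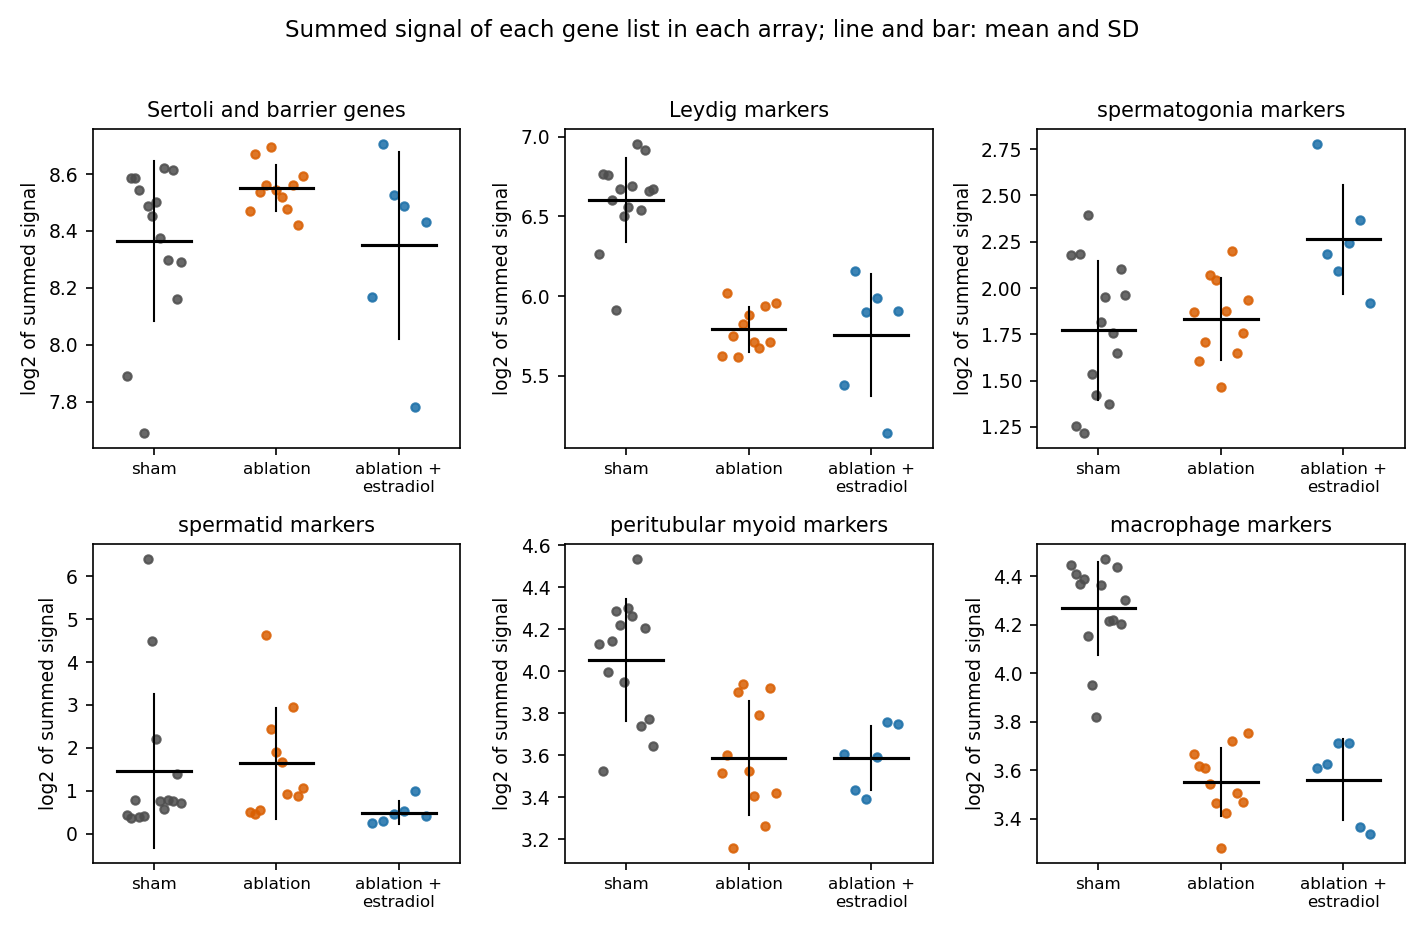
Log2 of the summed signal of the 30 named members and of 5 marker lists in each array; lines are means and bars SDs. The members lie at similar medians in the 3 groups (8.47, 8.54 and 8.46) while the Leydig list falls from 6.67 to 5.75 with ablation. Signals were summed unlogged, so bright members such as Clu, Aard and Ctnnb1 weigh most. Spermatid markers are high in single arrays.

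The members also varied among arrays of 1 group. In sham the SD ranged from 0.17 for F11r to 0.66 for Ctnnb1 among the tested members. The widest spreads belonged to bright genes that were low in the arrays of low top signal: Ctnnb1 was 4.23 and 3.79 in sham arrays 1 and 5 against a sham median of 5.35, and Aard 4.47 and 4.17 against 5.53. In estradiol arrays 1 and 5 the same genes were 4.77 and 4.16, and 4.76 and 4.41. Gja1 in sham arrays 1 and 5, at 3.74 and 3.47, was still above every ablation array.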

How the data were processed

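Total RNA of irradiated rat testes was measured on 31 Affymetrix arrays. The deposited values are MAS5 signals, per the submitters' processing notes, on a logarithmic scale read here as log2. The base, MAS5 version and scaling target are not given in the sources used here, so folds rest on that reading. Values were used as deposited, with no pseudocount. Of 31099 probe sets, 57 controls were left out and 21269 passed the filter. Names came from the platform annotation: 20826 probe sets had 1 symbol, 436 several and 9780 none.

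With limma (version 3.58.1, R 4.3.3) every probe set was fitted over all 31 arrays (3 groups, variance trend, 2-sided, Benjamini-Hochberg over kept probe sets). The pipeline was tested on simulated data. The number of arrays limits the precision. No batch term could be fitted. Deviations of samples with the same replicate number correlated at -0.0856 to 0.0467 (ablation and sham), -0.182 to 0.0594 (both ablation groups) and -0.0107 to 0.376 (estradiol and sham, 3 of 6 pairs over 0.1). Since not every pair exceeded 0.1, the numbers were not taken to pair the samples.

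Members, lists and rules were chosen with earlier results of these data known. Full values are given for members called with a change of at least 0.5 or with groups that do not overlap. They are also given for 10 genes of the list whatever their p, Tjp1 among them. Dhh was added after its values were seen. Up to 4 called genes of each further list are named by smallest adjusted p.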

Additional observations from a re-analysis of the deposited data

Results flagged for a closer look

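Of 30 members checked in the 6 estradiol arrays, 3 had a lowest array farther from the rest than Dixon's 95% critical value allows, and chance flags about 1 in 20 groups. Ctsl was 3.95 in array 5, with the next at 4.31 (gap over range 0.75). Ocln was 1.16 in array 5, with the next at 1.65 (0.721). Krt8 was -2.72 in array 6, with the next at -2.22 (0.685), all below the filter level. Array 5 is one of the 4 arrays of low top signal.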

How the results depend on the processing

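Counts of called members moved beyond 1.5 times in these cases. Quantile normalization called 14 members with ablation (12 higher, 2 lower), 4 with added estradiol (2 and 2) and 13 for ablation plus estradiol against sham (12 and 1). With ablation it newly called Wt1 (0.27, limma adjusted p = 0.00131), Jam2 (0.29, 0.00153), Cst12 (0.22, 0.00274) and Cdh2 (0.38, 0.00471). Slc16a1 (0.31, 0.0211), Cldn5 (-0.30, 0.0378) and Dmrt1 (0.28, 0.0428) were gained there too. Only the irradiated-described sham arrays as controls left 3 with ablation and 2 against sham. The mean of all kept probe sets gave 2 with added estradiol. Centring on array medians moved the count less, to 6 higher and 2 lower with ablation. Under either scaling the median change over kept probe sets was 0.0045 to 0.0274 in the 3 comparisons. With the values as deposited it was -0.0307 to 0.0157.

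Nectin2 changed sign with the mean of its probe sets, to 0.38 with ablation (limma adjusted p = 0.00504), -0.78 with added estradiol (0.000161) and -0.40 against sham (0.0202), since its second probe set moves strongly. That mean also ended the calls of Gata4 (0.16, 0.366), Ocln (0.28, 0.053) and Itga6 with ablation. Without the 4 arrays of low top signal, a choice made after seeing the data, Gata4 (0.0796), Gata1 (0.0917) and Dhh (0.0598) against sham were no longer called. The causes were not tested.

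Leaving out 1 array gave 6 to 9 members with ablation, 1 to 1 with added estradiol and 5 to 8 against sham. Replicate numbers share only a number. The replicate block gave 8, 1 and 7 members; between ablation plus estradiol and sham, Dhh was not called with it (0.41, 0.0502) and Slc16a1 was (0.59, 0.0214), and with ablation Cdh2 was (0.34, 0.0437), and in the comparison of estradiol with sham 3 of 6 samples correlated best with their own number.

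Members near the filter level, such as Gata1 and Krt8, are limited by signal over background.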
